A study of Arabidopsis thaliana with 6 samples.

Results

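Alpha-expansins are small secreted proteins of the plant cell wall. The group described here was chosen by locus from the expansin gene family, with earlier results of these data known, and holds 10 loci. EXPA7 (AT1G12560) and EXPA18 (AT1G62980) are the root hair members, and EXPA3, EXPA4, EXPA6, EXPA8, EXPA10, EXPA14, EXPA15 and EXPA17 are the others. In the platform annotation used here, a probe set was assigned to a single gene for 5 of the 10, out of 13286 genes with such a probe set. Of the 22746 probe sets tested, 8730 were unnamed in it, so a gene without one here may still be on the array. These were both root hair members and, among the others, EXPA4 (AT2G39700), EXPA8 (AT2G40610) and EXPA15 (AT2G03090), each read by 1 probe set. EXPA3 (entered as EXP3 in the gene table), EXPA6, EXPA10, EXPA14 and EXPA17 were not analysed here, so the counts below do not describe all alpha-expansins.

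Affymetrix ATH1 arrays were used to read transcripts of whole Arabidopsis thaliana seedlings (ecotype Columbia 0), aged 7 days at treatment. The compound group received 5 µM of an N-aryl 2-(2,4-dichlorophenoxy)propanamide whose aryl ring carries an isobutyrylamino and a methoxy group. The DMSO group received an equal amount of the solvent, dimethyl sulfoxide, and RNA was taken from both after 24 h. Each group had 3 arrays, called biological replicates and numbered 1 to 3 in the labels, and for each array the seedlings of 24 wells, with 5 seeds to a well, were pooled.

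Expansins loosen the growing wall at acid pH, and are thought to weaken the contacts between cellulose and the polymers that coat it without cutting them. Different members of the family are active in different cells and organs. EXPA7 and EXPA18 are known from work in Arabidopsis as genes of the root epidermal cells that form hairs, and auxin is known to promote root hair growth. In RNA from whole seedlings, fewer cells of a type and less RNA per cell cannot be told apart.

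The deposited values are log2 expression values per probe set, and array medians lay between 5.75 and 5.79. The lower quartiles lay between 3.95 and 4.06, and values near or below them cannot be separated from background. Arrays that shared a replicate number deviated together from their group means (correlations across probe sets of 0.727 to 0.743), so the comparisons of the 5 measured members are also given within the replicate number. Medians over all probe sets were taken separately for each measure. The median share of the variation over the 6 arrays was 62.6% between replicate numbers and 9.84% between treatments. The median log2 fold change, compound minus DMSO, was 0.014, and 5th and 95th percentiles over all probe sets were -0.29 and 0.29.

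Both root hair expansins fell with the compound, while EXPA4 was higher by a similar factor and passed the test only with the replicate number as a block. EXPA8 and EXPA15 did not pass the test in either fit. With limma and Benjamini-Hochberg adjustment over 22746 probe sets, at a threshold of 0.05, 2 of the 5 measured members were called lower and 0 higher. Over all probe sets, 0.224% were called lower and 0.119% higher. With the replicate number as a block, 2 members were called lower and 1 higher, where 1.97% of all probe sets were called lower and 1.83% higher. The compound and DMSO arrays did not overlap in 3 of the 5 members, against 9.74% of all probe sets. The median log2 fold change of the 5 was -0.7.

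**Figure D1:**
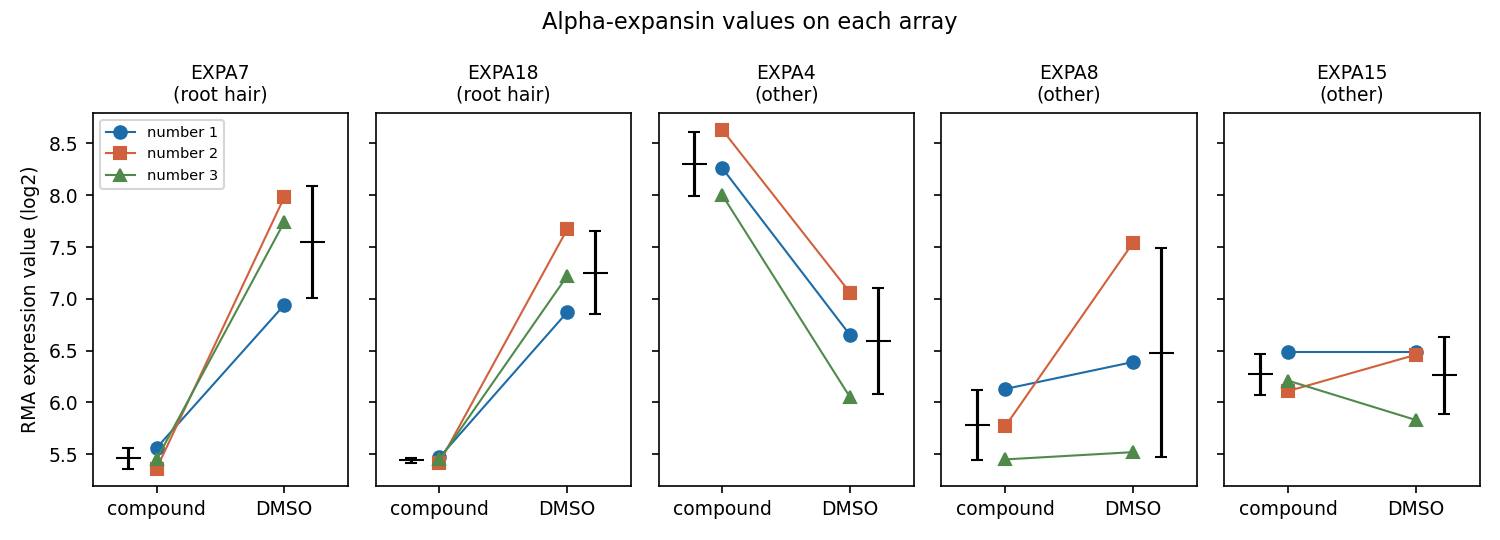
RMA expression value (log2, vertical axis) of the 5 measured alpha-expansins on each array, with compound on the left and DMSO on the right of each panel. Lines join arrays of the same replicate number, and black bars give the mean and SD of 3 arrays. EXPA7 and EXPA18 lie between 5.36 and 5.56 on all compound arrays, below every DMSO array, and EXPA4 lies above every DMSO array. Levels of different probe sets are not comparable.

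EXPA7 had values of 5.56, 5.36 and 5.45 with the compound and of 6.94, 7.98 and 7.74 with DMSO, in the order of replicate numbers 1, 2 and 3. All 3 compound arrays were low and close together, spanning 0.2 on the log2 scale, while the DMSO arrays spanned 1.04, and the groups were 1.38 apart at their nearest. The means were 5.46 ± 0.1 with the compound and 7.55 ± 0.54 with DMSO (SD, n = 3 each). The log2 fold change was -2.10 (SE 0.26, limma adjusted p = 0.042), a 4.28-fold lower value. Within replicate numbers 1, 2 and 3 the difference was -1.38, -2.62 and -2.29. Of all 22746 probe sets, 24 had a more negative log2 fold change.

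EXPA18, the other hair-cell expansin, had values of 5.47, 5.42 and 5.45 with the compound and of 6.87, 7.67 and 7.22 with DMSO. Again the compound arrays were almost level, with a range of 0.05, against 0.8 among the DMSO arrays, and the gap between the groups was 1.41. The level was 3.51-fold lower with the compound, a log2 fold change of -1.81 (SE 0.20, limma adjusted p = 0.0266). The means were 5.44 ± 0.02 with the compound and 7.25 ± 0.4 with DMSO (SD, n = 3 each). The difference was -1.41, -2.26 and -1.77 within numbers 1, 2 and 3. In both genes number 1 gave the smallest difference and number 2 the largest, and the DMSO array of number 1 was the lowest DMSO array.

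The compound values of both genes stood above the lower quartile of all arrays. Levels of different probe sets are not comparable, so this does not place them above the background of their own probe sets. Whether these falls are understated was not tested. Leaving out arrays changed the calls of both genes in part. Without DMSO replicate 1 both stayed called (EXPA7 -2.4, limma adjusted p = 0.00286; EXPA18 -2.0, 0.0157), and without DMSO replicate 2 EXPA18 did (-1.6, 0.0387). EXPA7 missed the threshold without DMSO replicate 2 (log2 fold change -1.88, limma adjusted p = 0.101), without DMSO replicate 3 (-2.01, 0.166) and without compound replicate 1, 2 or 3 (-2.15, -2.05 and -2.09, with 0.183, 0.181 and 0.225). EXPA18 missed it without DMSO replicate 3 (-1.83, limma adjusted p = 0.119) and without compound replicate 1, 2 or 3 (-1.82, -1.8 and -1.81, with 0.149, 0.12 and 0.152). Without any 1 compound array limma called no probe set at all. In these fits 1022, 1049 and 1047 of the 22746 probe sets had an unadjusted limma p under 0.05. Each count was below the share of 0.05 that would pass on average if no probe set differed. With the block and without number 3 in both groups, EXPA18 was still called (limma adjusted p = 0.0319) and EXPA7 was not (0.0598).

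EXPA4 went the other way. It had values of 8.26, 8.63 and 8.0 with the compound and of 6.65, 7.06 and 6.05 with DMSO. Every compound array was above every DMSO array, by at least 0.94, and in both groups number 2 was the highest and number 3 the lowest. The means were 8.3 ± 0.31 with the compound and 6.59 ± 0.51 with DMSO (SD, n = 3 each), a 3.28-fold difference. The log2 fold change of 1.71 had an SE of 0.28 and missed the threshold with treatment as the only term (limma adjusted p = 0.109). With the replicate number as a block the SE was 0.098 and EXPA4 passed (limma adjusted p = 0.000551).

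The 3 differences of EXPA4 within replicate numbers were 1.61, 1.57 and 1.96. They spanned less than those of either root hair gene, although its arrays differed more within the compound group. Only 15 of all probe sets had a larger positive log2 fold change, which puts EXPA4 at rank 16 from the top, while EXPA7 and EXPA18 stood at ranks 25 and 39 from the bottom. EXPA4 kept its call in each of the 3 fits with the block that left out a whole replicate number, with log2 fold changes of 1.59 to 1.78.

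EXPA8 had values of 6.13, 5.77 and 5.45 with the compound and of 6.39, 7.54 and 5.52 with DMSO. The groups overlapped, and the DMSO array of number 2 stood above the other 5 arrays by over 1 on the log2 scale. The means were 5.78 ± 0.34 with the compound and 6.48 ± 1.01 with DMSO (SD, n = 3 each). The log2 fold change was -0.70 (SE 0.49, 95% interval -1.88 to 0.47, limma adjusted p = 0.999), and the adjusted p was 0.313 with the block. The compound array was lower within all 3 numbers, with differences of -0.27, -1.77 and -0.07. Without DMSO replicate 2 the log2 fold change was -0.17, and without DMSO replicate 3 it was -1.18.

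EXPA15 had values of 6.49, 6.11 and 6.21 with the compound and of 6.49, 6.46 and 5.83 with DMSO. The ranges overlapped, and the difference was 0.01 in number 1, -0.36 in number 2 and 0.38 in number 3. The means were 6.27 ± 0.2 with the compound and 6.26 ± 0.37 with DMSO (SD, n = 3 each). Its log2 fold change was 0.01 (SE 0.20, limma adjusted p = 0.999) with a 95% interval of -0.48 to 0.50, so a change of the size seen in EXPA7, EXPA18 or EXPA4 lay outside the interval. Counted within replicate numbers, 3 of the 5 members (EXPA7, EXPA18 and EXPA8) were lower in all 3 and 1 (EXPA4) was higher in all 3. Of all probe sets, 16.5% were lower and 21.2% higher in all 3.

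The contrast between the root hair and the other members was taken as the mean log2 change of EXPA7 and EXPA18 minus the mean log2 change of EXPA4, EXPA8 and EXPA15. Over all arrays the root hair members changed by -1.95 and the others by 0.34, a contrast of -2.29. Within numbers 1, 2 and 3 the root hair members changed by -1.4, -2.44 and -2.03, and the others by 0.45, -0.18 and 0.76. The contrast was -1.85, -2.25 and -2.78 in the 3 numbers and had the same sign in each. The members were named by class with earlier results known, so the contrast is a description with no test.

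The mean of the other class covers members that differ among themselves by more than the class differs from zero. Taken gene by gene, the change of EXPA4 exceeded that of EXPA7 by 2.99, 4.19 and 4.25 in numbers 1, 2 and 3 on the log2 scale. Against EXPA18 the excess was 3.02, 3.82 and 3.72. The change of EXPA8 lay above that of EXPA7 by 1.12, 0.85 and 2.22. The root hair genes stayed close to each other, with EXPA18 minus EXPA7 at -0.03, 0.36 and 0.53.

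Elsewhere in the expansin family, 13 of 26 listed genes had a single-gene probe set in the annotation used here. None of the 13 passed the test with treatment as the only term, where 2 had an unadjusted p under 0.05 (0.028 for EXPA20 and 0.00192 for EXLB1), against 5.36% of all probe sets. With the replicate block 1 of the 13, EXLB1, rose and 0 fell, where the shares of all probe sets were 1.83% and 1.97%. Their median log2 fold change was 0.13, and 11 of the 13 means were higher and 2 lower with the compound. Within replicate numbers 9 of the 13 were higher in all 3 and 0 were lower in all 3, and the arrays of the groups did not overlap in 3 (EXPA20, EXPB1 and EXLB1). The shares of all probe sets were 21.2%, 16.5% and 9.74%. Some of these rises were near 0. In number 1 EXPA16 and EXPB2 differed by 0.0 after rounding and EXPB3 by 0.02, and in number 2 EXPB1 differed by 0.01. The mean over the 6 arrays was at or below the highest lower quartile in 4 of the 13, and both group means were below 5 in 8.

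**Figure D2:**
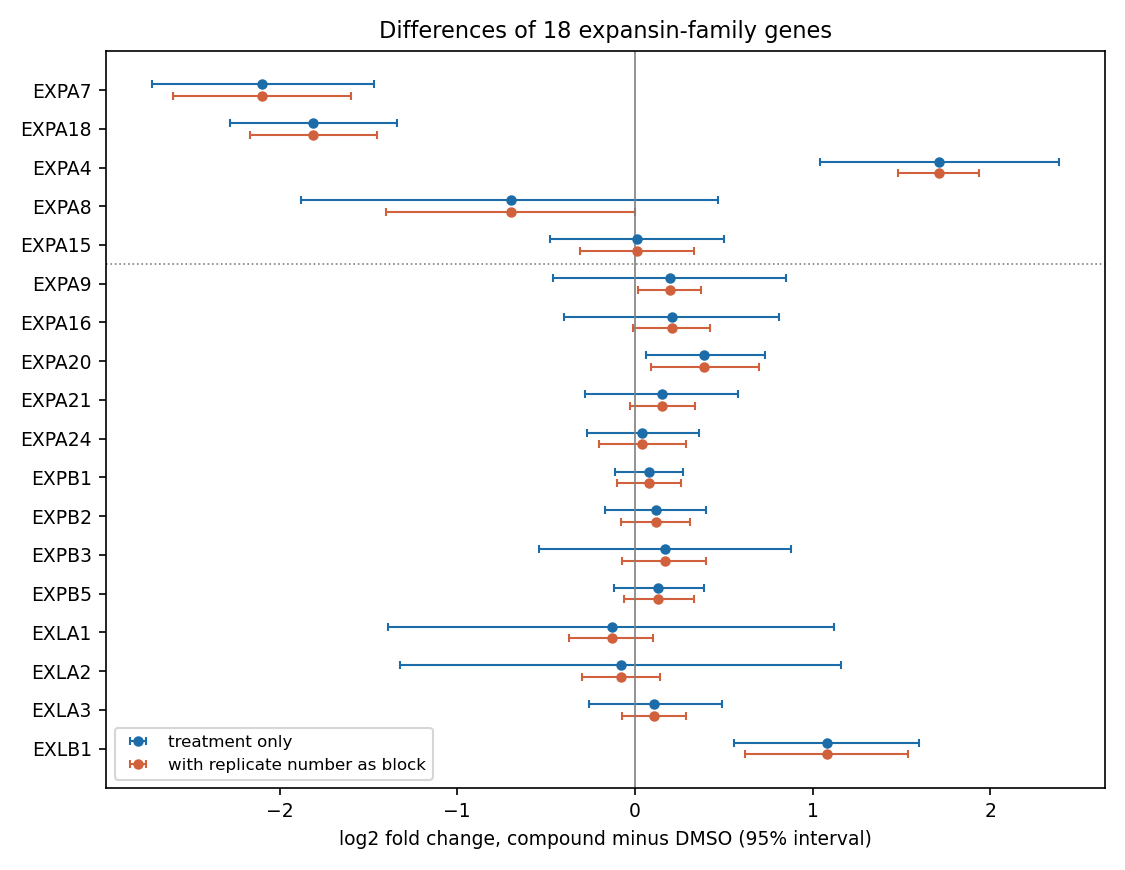
Log2 fold change, compound minus DMSO (horizontal axis), of 18 expansin-family genes, with 95% intervals from limma with treatment as the only term (blue) and with the replicate number as a block (orange). The dotted line parts the 5 measured alpha-expansin members, above, from the other 13 genes. EXPA7 and EXPA18 lie at -2.10 and -1.81, EXPA4 at 1.71 and EXLB1 at 1.08, and the remaining 14 lie between -0.70 and 0.39.

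EXLB1 encodes an expansin-like protein, of a branch for which wall loosening has not been shown. It had values of 7.79, 7.35 and 7.79 with the compound and of 6.65, 6.87 and 6.15 with DMSO. All compound arrays were above all DMSO arrays, by at least 0.48. The log2 fold change was 1.08 (SE 0.22, limma adjusted p = 0.203; SE 0.19, adjusted p = 0.031 with the block), a 2.12-fold higher value. The call with the block was lost without number 1 (limma adjusted p = 0.126) and without number 3 (0.151) in both groups, and kept without number 2 (0.00193).

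Among the alpha-expansins outside the 10 loci, EXPA20 had values of 5.83, 5.68 and 5.92 with the compound and of 5.5, 5.59 and 5.15 with DMSO. This difference, 0.39 on the log2 scale (SE 0.14), missed the threshold in both fits (limma adjusted p = 0.754, and 0.187 with the block), and the groups were 0.09 apart. EXPA9 had 7.71, 7.5 and 6.97 with the compound and 7.58, 7.28 and 6.72 with DMSO, so its groups overlapped although each compound array exceeded the DMSO array of its number, by 0.13 to 0.25. EXPA16, EXPA21 and EXPA24 had log2 fold changes of 0.21, 0.15 and 0.04. EXPA21 and EXPA24 had DMSO means of 3.83 and 3.69, below the lower quartile of the arrays, where a change can go unseen.

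The beta-expansins form the branch that also holds the pollen allergens of grasses. EXPB1, EXPB2, EXPB3 and EXPB5 had log2 fold changes of 0.08, 0.12, 0.17 and 0.13, and their limma adjusted p with the block lay between 0.485 and 0.689. The means of EXPB1 were 4.04 with the compound and 3.96 with DMSO, and its arrays were parted by only 0.01. EXPB5 had 3.7 with the compound and 3.57 with DMSO, below the lower quartile. EXLA3, an expansin-like gene, was at 0.11 (SE 0.16) on the same scale.

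The 2 remaining expansin-like genes, EXLA1 and EXLA2, varied widely between arrays, almost wholly between replicate numbers. EXLA1 had values of 10.33, 11.34 and 12.03 with the compound and of 10.67, 11.26 and 12.16 with DMSO. Number 1 was lowest and number 3 highest in both groups, and 97.3% of the variation over the 6 arrays lay between replicate numbers. EXLA2 had values of 6.88, 8.18 and 8.34 with the compound and of 7.01, 8.05 and 8.57 with DMSO, with 98.2% between numbers. Their log2 fold changes were -0.13 (95% interval -1.39 to 1.12) and -0.08 (-1.32 to 1.16) with treatment as the only term, and the intervals were -0.37 to 0.10 and -0.30 to 0.14 with the block. What the arrays of a number shared is not given in the labels.

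**Figure D3:**
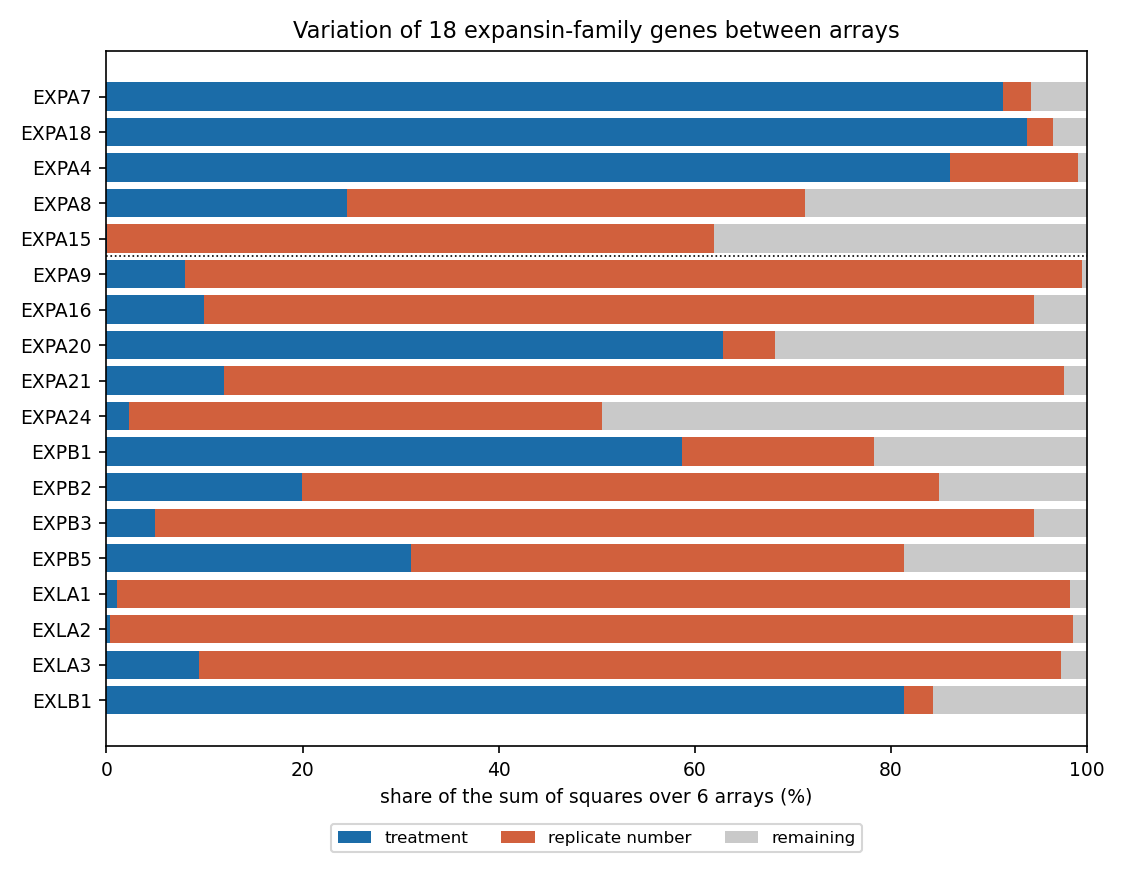
Share of the sum of squares of the log2 values over 6 arrays (%, horizontal axis) that lies between treatments (blue), between replicate numbers (orange) and in the remainder (grey), for 18 expansin-family genes. The treatment holds 91.5%, 93.9% and 86.0% in EXPA7, EXPA18 and EXPA4, while the replicate number holds 97.3% and 98.2% in EXLA1 and EXLA2.

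The split of the variation set the members apart in a similar way. In EXPA7 and EXPA18, 91.5% and 93.9% of the variation lay between treatments and 2.77% and 2.69% between replicate numbers. In EXPA4 the shares were 86% and 13.1%, which leaves 0.888% in the remainder. EXPA8 had 24.5% between treatments and 46.8% between numbers, and EXPA15 had 0.0471% and 61.9%. The median share between numbers over the other 13 expansin genes was 84.6%. Shares of the treatment restate the fold changes above and add no test.

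The genes nearest in pattern were found among 13285 genes by the root mean square difference between log2 values over the 6 arrays. Each gene was centred on its own mean. The pick used these same values, treatment difference included, so alike patterns and fold changes follow from it and are no separate support. Nearest to EXPA7 were AT4G30320 (0.083), GH9C1 (0.13), AT1G30870 (0.134) and EXPA18 (0.199). Nearest to EXPA18 were AT1G30870 (0.181), GH9C1 (0.186), AT1G30750 (0.191) and EXPA7 (0.199), so each root hair expansin was among the 4 nearest of the other. GH9C1 encodes an enzyme of glycosyl hydrolase family 9, whose members act on cellulose. GH9C1 had 5.09, 5.06 and 5.15 with the compound and 6.39, 7.32 and 7.32 with DMSO. Its log2 fold change of -1.91 (SE 0.25) missed the threshold with treatment as the only term (limma adjusted p = 0.0551) and passed with the block (0.00276).

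AT4G30320 stood at -2.12 on the log2 fold change scale (SE 0.31), with a limma adjusted p of 0.0765 and of 0.00804 with the block. AT1G30870 and AT1G30750, at -2.07 and -1.77, fell in both fits (limma adjusted p = 0.0149 and 0.0193 with treatment as the only term) and were called in 11 and 10 of 15 alternatives. Nearest to EXPA4 were AT4G08780 (0.195), AT1G03820 (0.226), XTH19 (0.255) and AT1G30760 (0.262). XTH19, which encodes a xyloglucan endotransglucosylase/hydrolase, an enzyme that cuts and rejoins wall xyloglucan, had 9.99, 10.67 and 9.94 with the compound and 8.47, 9.16 and 8.57 with DMSO. As in EXPA4, number 2 was the highest in both groups. Its log2 fold change of 1.47 had a limma adjusted p of 0.138, and of 0.000551 with the block. AT4G08780 and AT1G03820, at 1.67 and 1.73, likewise passed only with the block (limma adjusted p = 0.00118 and 0.00072), and AT1G30760, at 1.6, rose in both fits (0.0177 with treatment as the only term).

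**Figure D4:**
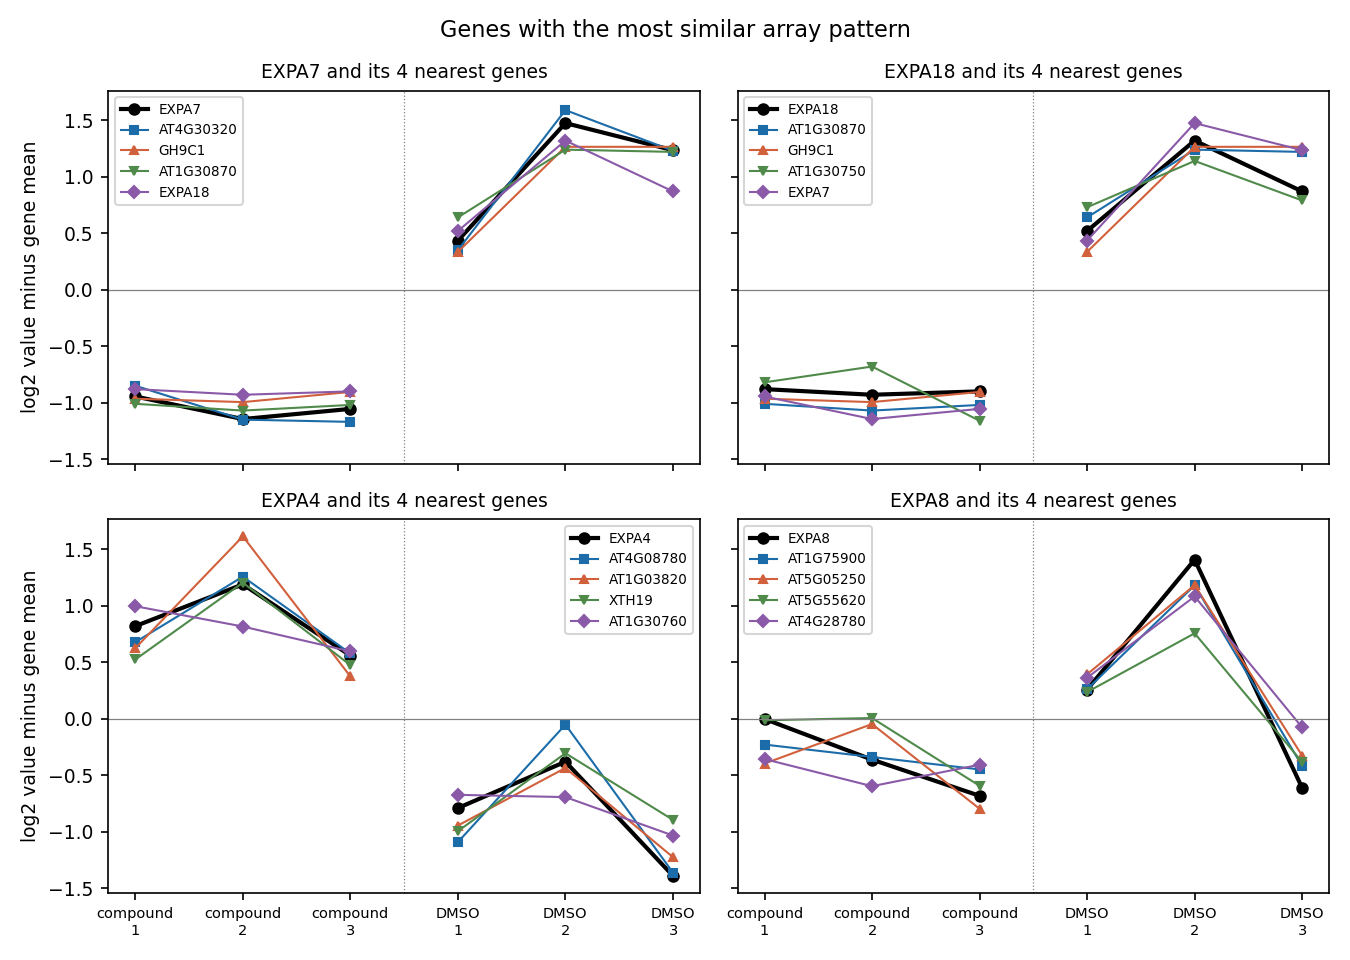
Log2 expression values minus each gene's own mean (vertical axis) on the 3 compound and the 3 DMSO arrays, for EXPA7, EXPA18, EXPA4 and EXPA8 (black) and the 4 genes nearest in pattern to each (colours). Lines join the values of a gene within a group, and replicates have no order. The neighbours were picked on these same values. AT4G30320 runs closest to EXPA7, at a root mean square difference of 0.083, and the DMSO array of number 2 stands highest in EXPA8 and its neighbours.

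Of 29 further root hair genes that were listed, 2 had a single-gene probe set in the annotation used here. XTH26, a xyloglucan endotransglucosylase/hydrolase gene, had 3.75, 3.95 and 4.07 with the compound and 5.87, 6.94 and 6.98 with DMSO. Its groups were 1.8 apart, and it fell by 2.67 on the log2 scale as measured (SE 0.30, limma adjusted p = 0.0318). Its compound values lay at the lower quartile, where they cannot be separated from background, so this difference, the gap and those within numbers can understate the fall. Among its DMSO arrays that of number 1 was the lowest, as in EXPA7 and EXPA18. Like them, XTH26 differed least within that number (-2.12, against -2.99 and -2.91). Without DMSO replicate 2 or 3 or any 1 compound array its limma adjusted p was 0.103 to 0.167. AT2G14760, the other listed gene, was at background in both groups, averaging 3.84 with the compound and 3.87 with DMSO.

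Markers of other seedling tissues were read by few genes. PYK10, a root gene that was the 1 measured of 17 listed markers of other root cells, had values of 12.81, 12.59 and 12.77 with the compound and of 12.84, 13.0 and 12.63 with DMSO. Its log2 fold change was -0.10 (95% interval -0.39 to 0.20), and a fall of the size of those of EXPA7 and EXPA18 lay outside the interval. Of 17 listed shoot markers 3 were measured. RCA and LHCB4.1, genes of photosynthesis, had log2 fold changes of -0.04 and -0.03, and FAMA, a regulator of guard cells, one of 0.10, and their limma adjusted p was 0.999 each. None of the 11 listed plasma membrane proton pump genes had a single-gene probe set in that annotation, and they were not analysed here. Their products acidify the wall in which expansins act.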

How the data were processed

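The series held 6 one-colour arrays. The submitters' processing notes name RMA, with which the authors made the deposited log2 expression values. RMA sets the probe intensities of all arrays to the same quantiles before they are summarised per probe set. This hides any shift common to all transcripts. The software version was not given in the sources used here, and the number of arrays limits the precision. Of 22810 probe sets, 64 controls were left out. Probe sets were named from the platform annotation and matched by gene number to the NCBI gene table of TAIR10.1. Of the 22746 tested, 13513 had 1 gene (13436 of them matched), 503 had several and 8730 were unnamed here.

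Compound and DMSO were compared over all tested probe sets by lmFit and eBayes of limma (version 3.58.1, under R 4.3.3) with Benjamini-Hochberg adjustment. Treatment was the only term of the model. Intervals are moderated 95% intervals. The code was tested on simulated data. These had no effect of the replicate number, so they do not test either fit under the shared deviations seen here. Replicate numbers were taken as pairing the arrays because deviations from the group means correlated above 0.1 in all 3 pairs. This pairing entered the differences within numbers and the fits with a block, and the main fit did not use it. Alternatives were the number as a fixed or random block, a mean of at least 4, median centring, an intensity trend, array weights, and leaving out arrays or pairs. All measured members, all measured expansins, called or lowest-p genes of the other lists, and the 4 nearest patterns were named. Lists with no called gene were described by all their measured genes. Members and lists were chosen with earlier results of these data known. No sequence or genome was used.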

Additional observations from a re-analysis of the deposited data

How the results depend on the processing

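Over 15 alternatives each, the direction of EXPA7 (-2.45 to -1.84), EXPA18 (-2.01 to -1.59), EXPA4 (1.44 to 1.95) and EXPA8 (-1.18 to -0.17) did not reverse. EXPA7 passed the threshold in 9, EXPA18 in 11, EXPA4 in 5 (those with the replicate number as a block, fixed or random) and EXPA8 and EXPA15 in 0. The replicate block called 3 of the 5 members in place of 2, and moved the number of called probe sets to 865, in place of 78. It was 491 with a random block, and 516, 743 and 205 with the block and without number 1, 2 or 3 in both groups. Without 1 array at a time, between 0 and 76 probe sets and between 0 and 2 members were called. Each such fit has fewer samples, and the spread is pooled over both groups, as in every fit here. The contrast of root hair and other members was -1.76 with the median level of each class on each array, against -2.29. That median was EXPA4 on the DMSO array of number 2 and EXPA15 on the other 5, so it ranks levels of different probe sets. The contrast of means ran from -2.58 to -1.94 without 1 array. The 5 measured members had means above 4, so that filter left the contrast as it was.

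Reversals of direction occurred in genes whose log2 fold change with all arrays lay between -0.13 and 0.21. With the block and without number 3, EXPA15 was at -0.17 and EXPA24 at -0.0033. With the block and without number 2, EXPA24 was at -0.05, AT2G14760 at 0.03 and PYK10 at 0.06. Without 1 array, the ranges were -0.2 to 0.12 for EXPA15, -0.04 to 0.41 for EXPA9, -0.01 to 0.41 for EXPA16, -0.03 to 0.18 for EXPA24, -0.06 to 0.44 for EXPB3, -0.53 to 0.32 for EXLA1, -0.51 to 0.38 for EXLA2, -0.01 to 0.23 for EXLA3, -0.09 to 0.02 for AT2G14760, -0.08 to 0.01 for LHCB4.1 and -0.11 to 0.28 for FAMA.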

Other observations

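The 4 genes nearest in pattern to EXPA8 also stood highest in the DMSO array of number 2, which the pick on these same values favours. They were AT1G75900 (root mean square difference 0.176), AT5G05250 (0.264), AT5G55620 (0.319) and AT4G28780 (0.329). AT1G75900 had 7.09, 6.98 and 6.87 with the compound and 7.58, 8.5 and 6.9 with DMSO. Their log2 fold changes were -0.68, -0.83, -0.41 and -0.91, and none passed the test with treatment as the only term. With the replicate block AT5G05250 passed (limma adjusted p = 0.0233), but not with the number as a random block (0.131) or with the block and without number 1 (0.0922) or number 3 (0.0537) in both groups.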
